A study of Mus musculus with 8 samples.

Results

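TRAV7-3, TRAV7D-3, TRAV7-4 and TRAV7N-4 are variable genes of the mouse T cell receptor alpha (TRA) locus, near-identical within the -3 and within the -4 pair, and their use was followed through the TCR chains of CD8+ T cells from the thymus, spleen and tumor. Members were all barcodes, each standing for 1 cell, whose TRA variable gene was called TRAV7, TRAV7D or TRAV7N followed by -3 or -4 and which carried no multiplet mark. This rule found 4806 of 107882 TRA-bearing cells, or 4.45%. TRAV7-3 was called in 1841 cells, TRAV7D-3 in 1088, TRAV7-4 in 1342 and TRAV7N-4 in 532. The rule also found TRAV7D-4 in 3 cells. A further 1154 cells with these genes carried a multiplet mark and were left out. The CDR3, the loop that spans the join of V and J gene, ended in F or W, as a productive chain does, in 4573 members. The other 233 are described apart.

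The cells came from 7 adult C57BL/6 mice in 14 tables. Every mouse gave a thymus table, 2 mice gave a spleen table and 5 gave a tumor table. The study used Pdcd1fl/fl mice and Pdcd1 cKO mice, in which a Cd8a-driven Cre removes the floxed Pdcd1 gene from CD8+ T cells, so that both genotypes carry the floxed allele. Mice were without tumors (thymus and spleen) or bore B16-OVA or B16-F10 melanoma (thymus and tumor). Thymic and splenic cells were taken with a CD8a+ isolation kit and tumor cells with CD8 (TIL) microbeads. The labels give neither genotype nor tumor model for a mouse, and tissue and mouse are known only from the name of each deposited table, so no group was compared and the tables are described by mouse, as in mouse-155A. The 8 samples in the labels are sublibraries that each hold cells of all 14 tables. The TRA-bearing cells without a multiplet mark numbered 2523 to 20511 per table, and the 4 copies made up 4.00% to 4.80% of them in a sublibrary. TCR tables hold no CD8 transcript, so the labelled cell type could not be checked. In the alpha and beta chain columns, 0 cells had a gamma, delta or immunoglobulin gene. The libraries covered alpha and beta chains only, so this 0 cannot exclude gamma delta T cells or B cells.

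The TRA locus is built from a long row of TRAV genes followed by a row of TRAJ genes, and a T cell joins a TRAV gene to a TRAJ gene in the thymus. TRAJ genes are numbered so that the highest numbers lie nearest to the TRAV genes and the lowest nearest to the constant gene. Joining can be repeated on 1 chromosome, each time with a TRAV gene further upstream and a TRAJ gene further downstream. A recombination signal, made of a heptamer, a spacer and a nonamer, follows every TRAV gene and is cut away in the join. In C57BL/6 mice a block of TRAV genes is present in several copies, marked D and N in the gene names, and the genes followed here lie within it.

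All 5 genes lay on the plus strand of chr14 in GRCm39 and had 2 exons in the GENCODE M39 annotation. TRAV7D-3 (chr14:52981706-52982297) lay farthest upstream, 1410 kb before the nearest TRAJ gene. It was followed by TRAV7D-4 (chr14:53007210-53007849, 1385 kb), TRAV7N-4 (chr14:53328803-53329332, 1063 kb), TRAV7-3 (chr14:53680706-53681296, 711 kb) and TRAV7-4 (chr14:53698556-53699195, 693 kb). The second exon, which encodes the variable domain, had 288 bases in the -3 copies and 292 in the -4 copies. Counted from 1 at the start of that exon, TRAV7-3 and TRAV7D-3 differed at 2 bases, C230G and G233A (99.3% identity). TRAV7-4 and TRAV7N-4 differed at 6 bases (97.9% identity), of which C283T lay closest to the exon end. TRAV7-4 and TRAV7D-4 differed at 1 base, A158C. The last 62 bases of the exon are shown because they hold the bases by which a read was given to a copy, written in capitals.
TRAV7-3 (chr14:53681235-53681296, plus strand): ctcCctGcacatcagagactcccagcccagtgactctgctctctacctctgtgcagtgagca
TRAV7D-3 (chr14:52982236-52982297, plus strand): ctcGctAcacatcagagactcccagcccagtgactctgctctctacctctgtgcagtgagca
TRAV7-4 (chr14:53699134-53699195, plus strand): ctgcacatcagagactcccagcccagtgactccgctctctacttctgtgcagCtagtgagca
TRAV7N-4 (chr14:53329271-53329332, plus strand): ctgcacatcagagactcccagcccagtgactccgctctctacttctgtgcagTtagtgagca

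The deposited reads resolved some of these copies and not others. Annotated reads of the 4 copies began at exon base 177 in the median cell (5th to 95th percentile 176 to 177 in TRAV7-3, TRAV7D-3 and TRAV7-4), so they covered the last part of the exon only. Both bases that separate the -3 copies were the called copy's own in 1481 of 1483 annotated TRAV7-3 cells and in 850 of 850 TRAV7D-3 cells. The base at position 283 was the called copy's own in 1139 of 1150 TRAV7-4 cells (in the other 11 it was not aligned or was the base of neither copy), and in 420 of 421 TRAV7N-4 cells. Base 158 was read in 0 cells called TRAV7-4 and in all 3 cells called TRAV7D-4, which came from 3 mice and carried C there. A cell called TRAV7-4 could therefore carry TRAV7D-4, and every value given for TRAV7-4 covers both genes. The C or T at position 283 lies in the second codon after the conserved cysteine of the CDR3. In the distinct chains of a mouse, the CDR3 began with CAA in 98.1% of 806 TRAV7-4 chains and with CAV in 100% of 349 TRAV7N-4 chains. It began with CAV in 78.8% of 1405 TRAV7-3 chains and in 79.4% of 863 TRAV7D-3 chains.

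TRAV7-3 was the most used copy and TRAV7N-4 the least. Over the 14 tables the median share of TRA-bearing cells whose CDR3 ended in F or W was 1.90% for TRAV7-3, 1.03% for TRAV7D-3, 1.04% for TRAV7-4 and 0.442% for TRAV7N-4. Among 82 TRAV genes seen, TRAV7-3 ranked 20th, TRAV7-4 27th, TRAV7D-3 30th and TRAV7N-4 48th by cells. TRAV7D-3 and TRAV7-4 had nearly the same median share.

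In thymus tables the shares were narrow. TRAV7-3 held 1.71% to 2.12% of cells over the 7 thymus tables (median 1.91%), TRAV7D-3 0.895% to 1.16% (1.02%), TRAV7-4 0.822% to 1.53% (1.18%) and TRAV7N-4 0.321% to 0.545% (0.462%). The lowest TRAV7-3 thymus share lay above the highest TRAV7-4 thymus share, so these copies did not overlap. TRAV7D-3 and TRAV7-4 overlapped. In the spleens of mouse-155A and mouse-155C, TRAV7-3 held 2.18% and 2.10%, TRAV7D-3 1.52% and 1.64%, TRAV7-4 0.981% and 0.891%, and TRAV7N-4 0.535% and 0.463%. Both TRAV7D-3 spleen shares lay above all 7 of its thymus shares.

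Tumor shares of cells spread far more widely. TRAV7-3 held 0.481% of the tumor cells of mouse-160A, 2.39% of those of mouse-160B and 0.587% of those of mouse-160C. In the tumors of mouse-164B and mouse-164C it held 1.14% and 1.89%. For TRAV7D-3 the shares were 0.222%, 1.22%, 0.386%, 0.918% and 1.19% in the same order. Both -3 copies were low by cells in the tumors of mouse-160A and mouse-160C. TRAV7-4 held 0.407%, 2.34%, 0.525%, 2.02% and 0.917%, and was high in mouse-160B and mouse-164B. TRAV7N-4 held 0%, 0.478%, 0.247%, 0.367% and 0.403%. The 0 in mouse-160A was 0 of 2702 cells, with an exact 95% upper limit of 0.136%. With each distinct TRA chain of a table counted once, TRAV7-4 held 1.34% to 1.55% in tumors and 0.913% to 1.54% in thymus tables. TRAV7-3 then held 1.58% to 2.52% in tumors (thymus 1.83% to 2.25%) and TRAV7D-3 0.946% to 1.59% (0.998% to 1.26%). TRAV7N-4 then held 0% to 0.738% (0.416% to 0.552%).

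**Figure D1:**
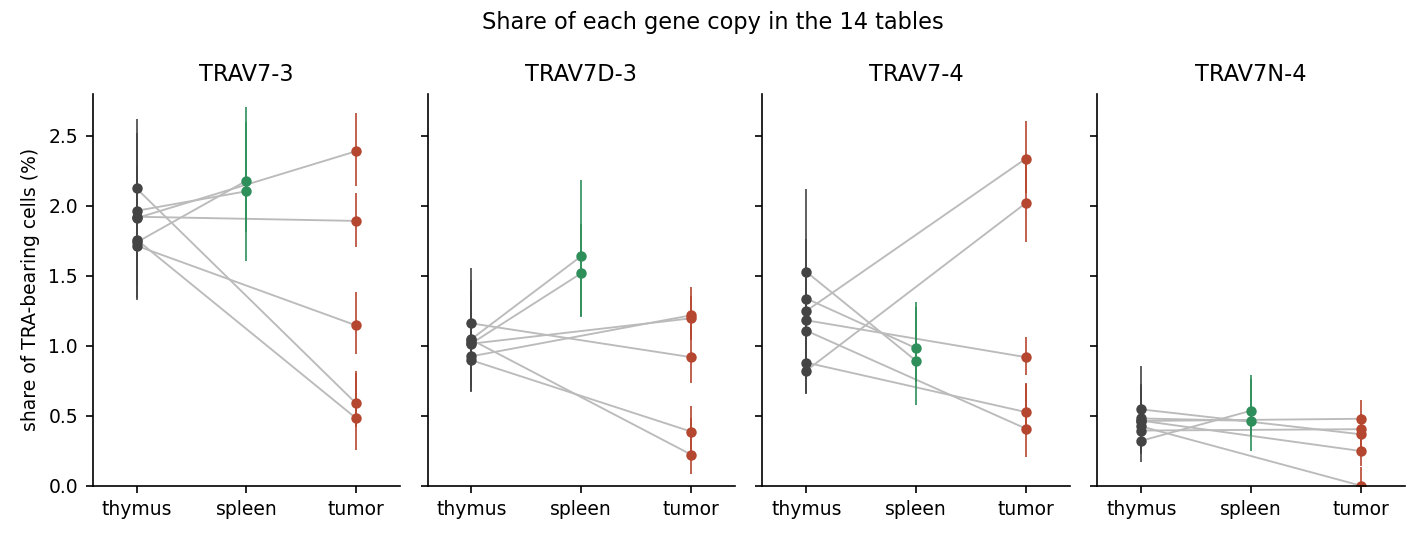
Share of TRA-bearing cells (percent, vertical axis) that used each of the 4 copies, with 1 point per table, exact 95% intervals for counting error and grey lines joining the tables of a mouse. Thymus points lie close together for each copy, while tumor points of TRAV7-4 run from 0.407% to 2.34%.

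The shares of a mouse's second tissue and thymus differed by more than 1.5-fold in 12 of 27 combinations of copy and mouse (44.4%), near the 43.1% over all 401 combinations of TRAV gene and mouse. By mouse, this fold was passed by 1 of 4 copies in mouse-155A (19% of all TRAV genes tested there), 2 of 4 in mouse-155C (25%), 3 of 3 in mouse-160A (88%), 1 of 4 in mouse-160B (22.6%), 4 of 4 in mouse-160C (73.7%), 1 of 4 in mouse-164B (53.2%) and 0 of 4 in mouse-164C (26.6%). In the tumors of mouse-160A and mouse-160C most TRAV genes passed it. TRAV7-4 was the copy past the fold in both mouse-160B (1.87-fold higher in the tumor) and mouse-164B (2.46-fold higher). These 2 rises became 1.10-fold and 1.68-fold when each distinct TRA chain of a table was counted once. TRAV7-4 was higher in the thymus table in 5 of 7 mice by cells and in 3 of 7 by distinct chains. TRAV7D-3 was higher in the second table in 4 of 7 mice by cells and in 6 of 7 by distinct chains. For TRAV7N-4, in the 6 mice with cells in both tables, these counts were 3 and 6. Each distinct chain counted once gave TRAV7N-4 shares 1.03 to 1.35 times as high in the second table. Cells are not replicates and no tissue was tested.

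The copies differed in their mean TRAJ number, except that TRAV7-3 and TRAV7D-3 were not told apart by their means. Each copy was joined to genes from TRAJ2 to at least TRAJ56. For each mouse the mean TRAJ number was taken over the distinct chains of a copy, a distinct chain being 1 combination of TRAV, TRAJ and CDR3 amino acids, and the spread is over the 7 mice. The mean was 24.1 to 26.3 for TRAV7-3, 23.2 to 26.3 for TRAV7D-3, 25.7 to 31 for TRAV7-4 and 19.98 to 25.5 for TRAV7N-4. All other TRAV genes together gave 28.7 to 29.8. TRAV7-3, TRAV7D-3 and TRAV7N-4 lay below all other TRAV genes in every mouse.

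TRAV7-4 and TRAV7N-4 lay farthest apart. TRAV7-4 averaged 27.8 and TRAV7N-4 22.0, a difference of 5.80 TRAJ positions (SD 2.81, n = 7), with TRAV7-4 higher in 7 of 7 mice (exact sign-flip test over mice, two-sided, p = 0.015625, the smallest that 7 mice allow, and 0.0223 after Benjamini-Hochberg adjustment over 10 comparisons). The TRAV7-4 means lay between 25.7 in mouse-155A and 31 in mouse-155C, and the highest TRAV7N-4 mean, 25.5 in mouse-164B, lay below them all, so these copies did not overlap. TRAV7-3 (25.01) and TRAV7D-3 (24.3) differed by 0.74 positions (SD 1.14, n = 7), with TRAV7-3 higher in 5 of 7 mice, which did not pass the exact test (adjusted p = 0.156). These 2 copies lie 699 kb apart in the locus. TRAV7-4 was higher than TRAV7-3 by 2.77 positions (SD 1.51) and higher than TRAV7D-3 by 3.52 (SD 1.78), each in 7 of 7 mice (exact test, adjusted p = 0.0223 for both, n = 7). TRAV7N-4 was lower than TRAV7D-3 by 2.29 positions (SD 1.47) in 7 of 7 mice (exact test, adjusted p = 0.0223, n = 7) and lower than TRAV7-3 by 3.03 (SD 2.07) in 6 of 7 (exact test, adjusted p = 0.0391, n = 7).

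Against all other TRAV genes of the same mouse, the difference (copy minus other) was -4.45 positions for TRAV7-3 (SD 0.83), -5.20 for TRAV7D-3 (SD 1.02) and -7.48 for TRAV7N-4 (SD 1.73), each below 0 in 7 of 7 mice (exact test, adjusted p = 0.0223, n = 7). For TRAV7-4 it was -1.68 (SD 1.95), below 0 in 6 of 7 mice, and did not pass (exact test, adjusted p = 0.104, n = 7). Every difference from the other TRAV genes and that between TRAV7-4 and TRAV7N-4 kept its direction under all settings tried. No TRAJ comparison passed after adjustment in paired cells alone (lowest adjusted p = 0.0521 by the exact test), without TRA chains of more than 1 mouse (0.0781) or in thymus tables alone (0.0625). The first 2 of these settings gave 3.87 and 5.65 positions between TRAV7-4 and TRAV7N-4. Among sublibraries and mice left out in turn, calls changed in 3 TRAJ comparisons. The difference between TRAV7-3 and TRAV7N-4 lost its call without any of sublibraries 2, 6, 7 and 8 or any mouse other than mouse-164B (2.68 to 3.31 positions), and that between TRAV7D-3 and TRAV7N-4 without sublibrary 2 (2.35) or 8 (2.07). TRAV7-4 passed against other TRAV genes without mouse-155C (-2.35, exact test, adjusted p = 0.0391). Thymus tables alone gave 5.21 positions between TRAV7-4 and TRAV7N-4 in the 6 mice that had at least 10 distinct chains of both (exact test, p = 0.0625, adjusted p = 0.104).

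**Figure D2:**
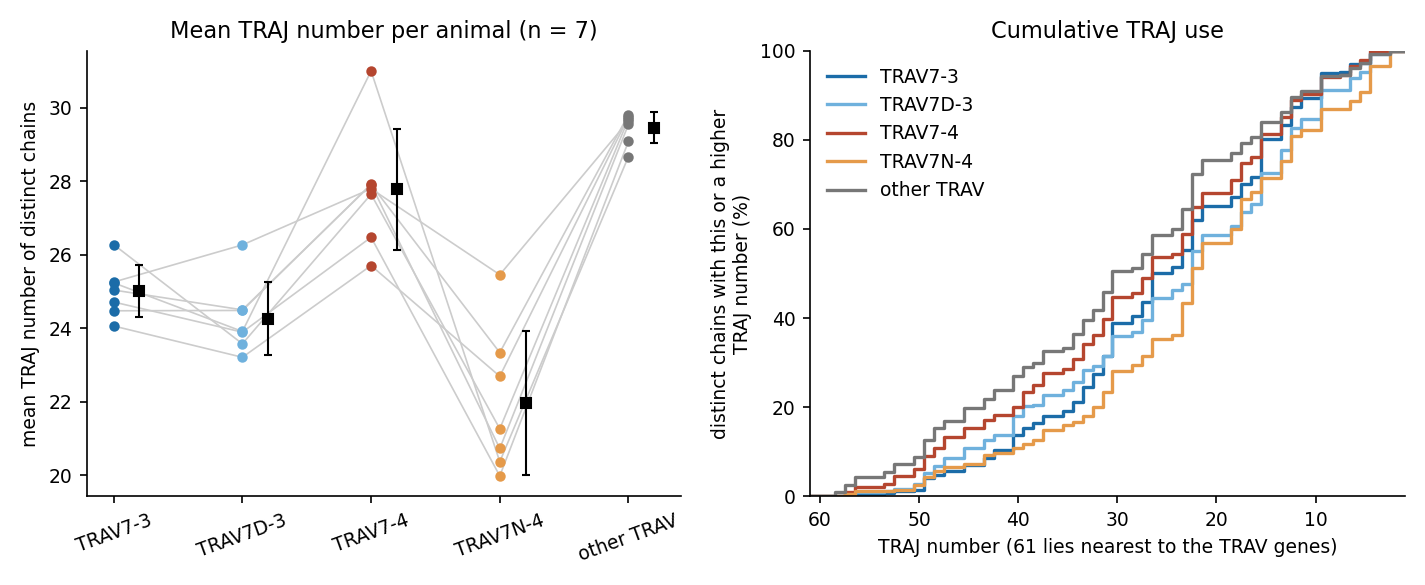
Left, mean TRAJ number of the distinct chains of each copy in each of 7 mice, with grey lines joining the values of a mouse and black squares with bars giving the mean and SD. Right, share of distinct chains (percent) with a given or higher TRAJ number, read from the TRAV-proximal end, where over most of the row TRAV7N-4 accumulates last of the 4 copies and the other TRAV genes accumulate first.

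The order of the copies at the distal end of the row was that of the means, while at the proximal end TRAV7-3 and TRAV7D-3 changed places. TRAJ40 to TRAJ61, the TRAV-proximal end, was used by 27.0% of the distinct chains of other TRAV genes, by 19.98% (95% interval 17.3 to 22.9) for TRAV7-4, 18.1% (15.6 to 20.8) for TRAV7D-3, 13.8% (12.05 to 15.7) for TRAV7-3 and 10.9% (7.82 to 14.6) for TRAV7N-4. TRAJ1 to TRAJ19, the distal end, was used by 24.6% for other TRAV genes, 32.0% (28.8 to 35.4) for TRAV7-4, 34.9% (32.4 to 37.4) for TRAV7-3, 41.4% (38.1 to 44.7) for TRAV7D-3 and 43.3% (38.0 to 48.6) for TRAV7N-4. TRAV7-3 used TRAJ20 to TRAJ39, the middle of the row, in 51.3% of chains (48.7 to 54.0), and TRAV7D-3 in 40.6% (37.3 to 43.9). These shares pool the chains of all mice, their intervals cover counting error only, and no difference between them was tested over mice.

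TRAJ22 was among the 3 most used TRAJ genes of every copy. It held 6.90% of TRAV7-3 chains, 7.42% of TRAV7D-3, 6.08% of TRAV7-4 and 8.02% of TRAV7N-4, beside 7.88% of other TRAV chains. TRAJ15 led TRAV7-3 with 8.40% (7.00 to 9.97) and came next in TRAV7D-3 with 7.07% (5.45 to 8.99) and TRAV7-4 with 5.21% (3.78 to 6.98), beside 3.31% in other TRAV genes. TRAJ30 held 7.47% of TRAV7-3 chains and 5.09% of TRAV7-4 chains (other TRAV genes 4.59%). TRAJ9 held 6.60% of TRAV7D-3 chains (other TRAV genes 3.31%). TRAV7N-4 was led by TRAJ22, TRAJ23 (7.16%, 4.69 to 10.4, beside 4.50%) and TRAJ17 (6.88%, 4.46 to 10.1, beside 2.41%).

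CDR3 length split the copies by number, not by D or N. The mean length over the distinct chains of a mouse was 12.7 to 12.9 amino acids for TRAV7-3, 12.7 to 13.2 for TRAV7D-3, 13.96 to 14.4 for TRAV7-4 and 14.2 to 14.6 for TRAV7N-4. Other TRAV genes gave 13.7 to 13.8. The -3 copies did not overlap the -4 copies in any mouse. TRAV7-3 chains were shorter than TRAV7-4 chains by 1.29 residues (SD 0.16) and TRAV7D-3 chains shorter than TRAV7N-4 chains by 1.36 (SD 0.23), each in 7 of 7 mice (exact sign-flip test, adjusted p = 0.0195, n = 7). The other pairs of a -3 and a -4 copy passed too, with 1.43 residues between TRAV7-3 and TRAV7N-4 (SD 0.16) and 1.22 between TRAV7D-3 and TRAV7-4 (SD 0.24). Within the -3 copies the difference was 0.08 residues (SD 0.21, exact test, adjusted p = 0.375, n = 7), and within the -4 copies 0.14 (SD 0.20, exact test, adjusted p = 0.122, n = 7), which passed only without sublibrary 2 (-0.18 residues, TRAV7-4 minus TRAV7N-4, adjusted p = 0.0347 in the exact test) among the libraries and mice left out in turn. The exon of the -4 copies is 4 bases longer. From the cysteine codon of the CDR3 onward it has 17 bases in the -4 copies and 13 in the -3 copies. How far this germline difference sets the CDR3 lengths was not tested. The bases at the join that matched neither the germline V nor the germline J gene had a median of 2 in each of the 4 copies, over 1177, 709, 653 and 276 distinct sequences of TRAV7-3, TRAV7D-3, TRAV7-4 and TRAV7N-4.

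**Figure D3:**
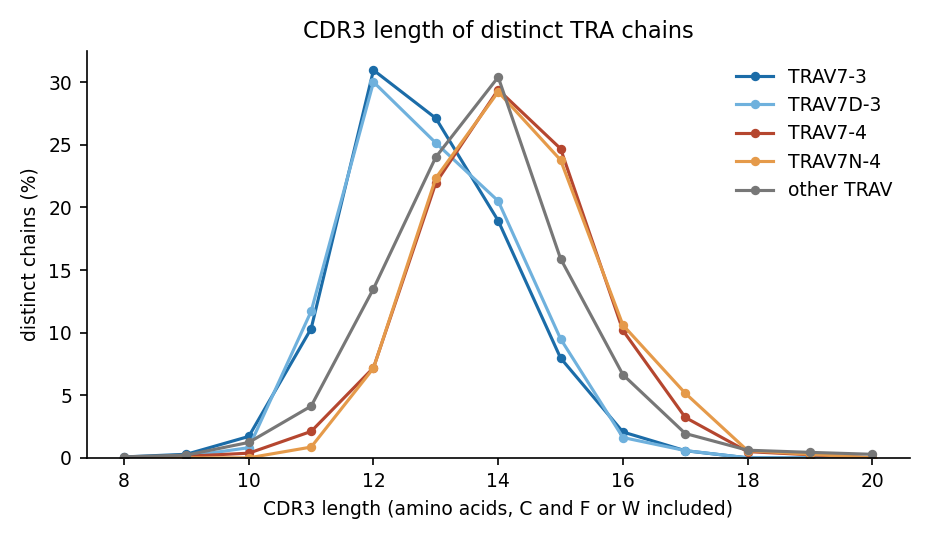
CDR3 length in amino acids (horizontal axis) against the share of distinct TRA chains (percent) for the 4 copies and all other TRAV genes. TRAV7-3 and TRAV7D-3 peak at 12 residues and TRAV7-4 and TRAV7N-4 at 14.

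Identical CDR3s were common between the -3 copies and were not seen between the -4 copies. The same TRAJ gene and CDR3 occurred with both TRAV7-3 and TRAV7D-3 in 178 cases, 17.1% of the 1039 TRAV7-3 chains and 25.8% of the 690 TRAV7D-3 chains. TRAV7-4 (665 chains) and TRAV7N-4 (299 chains) shared 0. Base 283, by which the reads separate these copies, lies inside the CDR3, so this 0 follows largely from the copy call. The bases that separate the -3 copies lie outside the CDR3, so sharing within the -3 and within the -4 copies cannot be compared. TRAV7N-4 shared 37 with TRAV7-3, or 12.4% of its own chains and 3.56% of the TRAV7-3 chains.

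Chains of the 4 copies were also found in more than 1 mouse. This held for 23.3% of distinct TRAV7-3 chains (20.8 to 26.0), 19.1% of TRAV7D-3 chains (16.3 to 22.3), 15.3% of TRAV7-4 chains (12.7 to 18.3) and 12.04% of TRAV7N-4 chains (8.58 to 16.3), beside 20.5% for other TRAV genes. The order of the copies was that of their numbers of distinct chains. The most widespread chains of the -3 copies and of the -4 copies differed in their nucleotide sequences, which are shown with bases that match neither germline gene in capitals.
TRAV7-3 with TRAJ30: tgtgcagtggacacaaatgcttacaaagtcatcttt
TRAV7-3 with TRAJ9: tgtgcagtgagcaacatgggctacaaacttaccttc
TRAV7-4 with TRAJ27: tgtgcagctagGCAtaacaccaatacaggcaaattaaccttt
TRAV7-4 with TRAJ39: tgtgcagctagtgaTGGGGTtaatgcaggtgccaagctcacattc

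The TRAV7-3 chain with TRAJ30 was seen in 44 cells of 6 mice and 10 tables. Its 38 annotated cells used 4 different nucleotide sequences, and the leading one had 0 bases outside the germline genes. It was paired with 18 different TRB CDR3s in 22 paired cells. The CDR3 of the TRAJ9 chain was seen with TRAV7-3 in 22 cells of 6 mice (4 nucleotide sequences) and with TRAV7D-3 in 21 cells of 5 mice. A TRAV7-3 chain with TRAJ26 was found in 12 cells of 6 mice, and a TRAV7D-3 chain with TRAJ15 in 7 cells of 5 mice with 3 nucleotide sequences.

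The most widespread TRAV7-4 chains were instead those of large tumor clones. The TRAJ27 chain occurred in 189 cells of 7 mice and 13 tables, of which 157 (83.1%) were in mouse-160B. All but 1 of its 184 annotated cells held the same nucleotide sequence, with 3 bases from neither germline gene. Outside mouse-160B, 96.9% of its 32 cells had 1 TRA transcript, against 34.4% inside, and 18 of the 32 shared both later well barcodes and the sublibrary with a mouse-160B cell of this chain. The TRAJ39 chain occurred in 117 cells of 7 mice, 81 of them in mouse-164B, with 1 nucleotide sequence in all 115 annotated cells. Its 36 cells elsewhere all had 1 transcript, and 12 shared those barcodes with a mouse-164B cell. A TRAV7N-4 chain with TRAJ21 had 24 of its 29 cells in mouse-164B and a TRAV7D-3 chain with TRAJ24 had 26 of 29 there, and their cells in other mice (5 and 3) all had 1 transcript. The part that carriage of RNA or barcodes between wells has in the spread of these 4 chains over mice was not tested. Of the widest chains of TRAV7N-4, 1 with TRAJ13 was in 8 cells of 5 mice and 1 with TRAJ23 in 4 cells of 4 mice. The next TRAV7-4 chain, with TRAJ12, was in 5 cells of 5 mice.

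Large clones were a feature of TRAV7-4 in 2 tumors. A clonotype is here 1 copy with 1 pair of TRA and TRB CDR3s, and shares are of paired cells whose TRA CDR3 ended in F or W. The TRAJ27 chain shown above, paired with TRBV2, held 79 cells of mouse-160B tumor, or 0.984% (0.779 to 1.22), and 5 cells of its thymus. In mouse-164B tumor, the TRAJ39 chain shown above, paired with TRBV16, held 55 cells, or 0.953% (0.719 to 1.24). The largest tumor clonotypes of the other copies were smaller. In mouse-164B, TRAV7D-3 reached 8 cells with its TRAJ24 chain and TRBV12-2, and TRAV7N-4 3 cells with its TRAJ21 chain and TRBV13-2. TRAV7-3 reached 7 cells in mouse-160B with each of 2 clonotypes, which used TRAJ12 and TRAJ9. Clonotypes of at least 3 cells in a table held 40.3% (180 of 447) of paired TRAV7-4 tumor cells, 7.41% (38 of 513) of TRAV7-3, 4.56% (14 of 307) of TRAV7D-3 and 2.73% (3 of 110) of TRAV7N-4, beside 34.4% for other TRAV genes. By mouse the TRAV7-4 value ran from 0% to 60.7%, with 103 of the 180 cells in mouse-160B and 74 in mouse-164B, so it describes these 2 tumors.

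The largest thymus clonotype of each of the 4 copies was also found in the second table of its mouse. The TRAV7D-3 clonotype with TRAJ24 and TRBV12-2 had 14 thymus and 8 tumor cells in mouse-164B. The TRAV7N-4 clonotype with TRAJ21 and TRBV13-2 had 13 thymus and 3 tumor cells in the same mouse. A TRAV7-3 clonotype with TRAJ17 and TRBV17 had 8 thymus and 3 spleen cells in mouse-155C. In all, 6 clonotypes of the 4 copies were found in both tables of a mouse, in 4 mice. The remaining ones were the TRAV7-4 clonotype of mouse-160B, a TRAV7-4 clonotype with 4 thymus and 2 tumor cells in mouse-160A, and a TRAV7N-4 clonotype with TRAJ15 and with 2 cells in each table of mouse-160B. Each had 1 TRA nucleotide sequence in all its annotated cells. None of their cells in the second table shared both later well barcodes and the sublibrary with a thymus cell of the same clonotype. Of the 32 cells of the TRAJ27 chain outside mouse-160B, only 18 shared them with a mouse-160B cell. Carriage between the wells of a mouse's tables was not tested. The number of mice is too small, and their genotype is not given, for a comparison of such sharing. The TRA sequences of 3 of these clonotypes that were not yet shown are given with bases that match neither germline gene in capitals.
TRAV7D-3 with TRAJ24 (mouse-164B): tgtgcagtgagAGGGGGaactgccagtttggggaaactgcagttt
TRAV7N-4 with TRAJ21 (mouse-164B): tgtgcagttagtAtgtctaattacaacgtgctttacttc
TRAV7-3 with TRAJ17 (mouse-155C): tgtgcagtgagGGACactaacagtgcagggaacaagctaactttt

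TRB partners were broad in every copy. The 2793 paired members used 22 TRBV genes. By distinct pairs, TRBV13-2 led all 4 copies with 10.5% for TRAV7-3, 11.9% for TRAV7D-3, 10.9% for TRAV7-4 and 11.3% for TRAV7N-4, beside 11.9% for other TRAV genes. TRBV13-1 came next in TRAV7-3 (9.67%), TRAV7D-3 (9.78%) and TRAV7-4 (9.12%), beside 7.81%. In these copies it was above the other TRAV genes in 4, 5 and 4 of 7 mice. TRBV3 held 9.12% (7.46 to 10.997) of TRAV7-3 pairs and 8.65% (6.57 to 11.1) of TRAV7D-3 pairs, beside 6.62%, and each was above the other TRAV genes in 7 of 7 mice. It held 7.02% of TRAV7-4 pairs and 7.98% of TRAV7N-4 pairs. TRBV12-1 went the other way in the -3 copies, with 5.02% (3.796 to 6.50) for TRAV7-3 and 3.69% (2.35 to 5.48) for TRAV7D-3 beside 8.34%. Both were below the other TRAV genes in 7 of 7 mice. TRAV7-4 held 8.60% (6.43 to 11.2) and TRAV7N-4 5.88% (3.25 to 9.67), above the other TRAV genes in 3 and 2 of 7 mice. TRBV12-2 held 7.98% (4.87 to 12.2) of TRAV7N-4 pairs, beside 5.18%, and was above the other TRAV genes in 4 of 7 mice. TRBV16 made up 7.02% of TRAV7-4 pairs but 13.9% of its paired cells (105 of 753), and 55 of those cells were the clonotype of mouse-164B tumor. No TRBV share was tested.

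Chains without a terminal F or W were far more frequent in the -4 copies. They made up 1.58% of TRAV7-3 cells (29 of 1841), 1.56% of TRAV7D-3 cells (17 of 1088), 6.04% of TRAV7-4 cells (81 of 1342) and 19.9% of TRAV7N-4 cells (106 of 532), beside 5.75% for other TRAV genes. Most of them in the -4 copies were 1 sequence per copy. It equalled the unrearranged genome letter by letter, as read in 82 annotated TRAV7N-4 cells and 67 annotated TRAV7-4 cells. It ran from the end of the V exon through the heptamer, spacer and nonamer of the recombination signal. Counts of read-through cells take every cell with the CDR3 amino acids of this sequence, annotated or not. The TRAV7-3 stretch is the same in TRAV7D-3, and the TRAV7-4 stretch is the same in TRAV7D-4. Heptamer and nonamer are in capitals here.
TRAV7N-4 read-through (chr14:53329316-53329377, plus strand): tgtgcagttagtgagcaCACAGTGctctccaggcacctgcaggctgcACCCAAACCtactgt
TRAV7-4 read-through (chr14:53699179-53699240, plus strand): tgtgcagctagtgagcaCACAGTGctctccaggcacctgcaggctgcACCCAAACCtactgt
TRAV7-3 read-through (chr14:53681284-53681337, plus strand): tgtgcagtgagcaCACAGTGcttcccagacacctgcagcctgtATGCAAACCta

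This read-through chain accounted for 99 of 532 TRAV7N-4 cells, or 18.6% (15.4 to 22.2), in all 14 tables. By table it ranged from 9.09% to 48.5%, with a median of 15.4% over the 13 tables with at least 10 TRAV7N-4 cells. Its TRAV7-4 form accounted for 68 of 1342 cells, or 5.07% (3.96 to 6.38), also in 14 tables, with a median of 3.61%. In TRAV7-3 it was 16 of 1841 cells, or 0.869% (0.498 to 1.41), and in TRAV7D-3 6 of 1088, or 0.551% (0.203 to 1.20). The deposited tables named TRAJ6 for all cells of the -4 forms and TRAJ47 for all cells of the -3 forms, although no TRAJ base is in the shown sequence. A single transcript supported 98.0% of the TRAV7N-4 cells, 89.7% of the TRAV7-4 cells and 100% of the others, beside 39.5% to 49.6% of the copies' F- or W-ending cells. The TRAV7N-4 form was paired with 42 different TRB CDR3s in 44 paired cells.

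The TRAV7-4 form was uneven. Mouse-160C tumor held 37 of its 68 cells, and 28 of these carried the same TRB CDR3, of TRBV1. That TRB was found with a TRA chain in 150 cells of the table, most often with a chain of TRAV3-1 and TRAJ28 (41 cells). The CDR3 of this TRAV3-1 chain did not end in F or W either. The most frequent TRA partner that did was a chain of TRAV8D-2 and TRAJ12 (13 cells). Without those 28 cells the TRAV7-4 form made up 40 of 1314 cells, or 3.04% (2.18 to 4.12), still below the interval of TRAV7N-4. Read-through chains were left out of the shares of single copies by table, the TRAJ means and the CDR3 lengths given above, but are among the 4806 members.

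**Figure D4:**
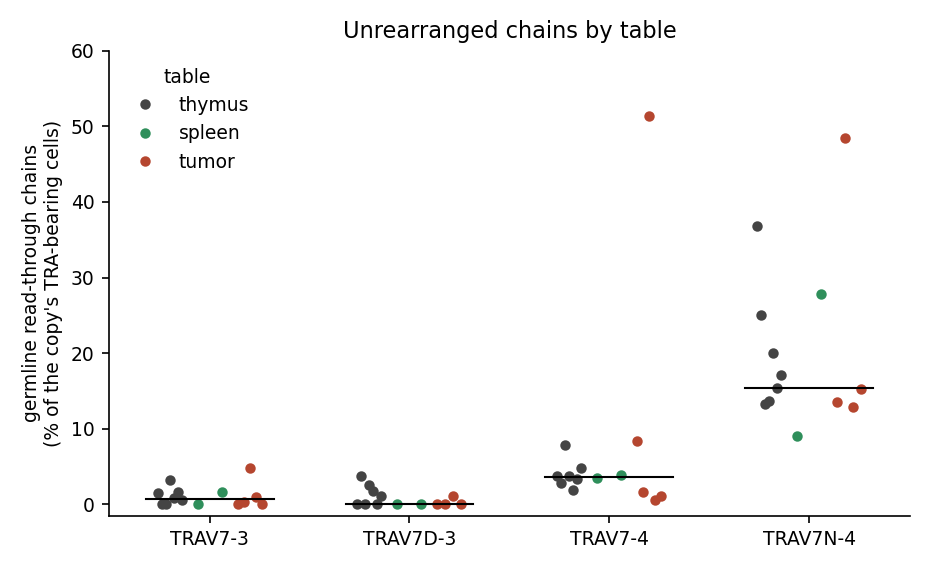
Share of a copy's TRA-bearing cells (percent) whose CDR3 amino acids were those of the unrearranged germline sequence, with a black line at the median. There is 1 point per table that held at least 10 TRA-bearing cells of the copy. TRAV7N-4 has a median of 15.4%, and the single high TRAV7-4 point at 51.4% is mouse-160C tumor.

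Of the rest of the TRAV7 family, only TRAV7-1 was common, with 578 cells in 14 tables, a mean TRAJ number of 24.0 over its 505 distinct chains and a mean CDR3 length of 13.1. TRAV7-5 had 57 cells, TRAV7D-5 23, TRAV7D-6 13, TRAV7-6 6 and TRAV7-2 1, while TRAV7D-2, TRAV7N-5 and TRAV7N-6 were called in 0 cells. The 3 genes whose shares, each distinct chain counted once, ran most like those of a copy over the 14 tables were taken from 58 TRAV genes with at least 200 cells. For TRAV7-3 they were TRAV9D-4 (Spearman rho 0.710), TRAV7D-3 (0.692) and TRAV7N-4 (0.565), and for TRAV7D-3 TRAV6-1 (0.732), TRAV9D-4 (0.714) and TRAV7-3. For TRAV7-4 they were TRAV6-6 (0.670), TRAV7-1 (0.604) and TRAV14N-3 (0.437), and for TRAV7N-4 TRAV17 (0.653), TRAV9D-3 (0.613) and TRAV9D-2 (0.609). TRAV7-4 and TRAV7N-4 did not run together (rho -0.04). The tables share mice and sublibraries, so these values are descriptions. Invariant NKT-like chains (TRAV11 or TRAV11D with TRAJ18) were found in 3811 of 107882 cells and MAIT-like chains (TRAV1 with TRAJ33) in 1. Of the 4573 members whose CDR3 ended in F or W, 95 used TRAJ18 and 120 used TRAJ33.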

How the data were processed

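The authors assembled and annotated the chains with the Parse Biosciences TCR pipeline on GRCm39. For its version and gene reference, the sources used here name none. Per barcode and chain, the deposited tables give V, J and CDR3 calls and a transcript count. The deposited annotation tables give the read alignment and the percent identity to the V gene, and cover 40.5% of the barcodes of mouse-164B thymus, 29.9% of mouse-164C tumor and 92.6% of mouse-160B thymus. Doublets were those the authors' pipeline marked. Copies were called by the authors, with allele suffixes dropped. The copies, lists and tests were chosen with earlier results of these data known. Mean TRAJ number and CDR3 length of distinct chains were compared within mice with at least 10 chains of both sets by exact two-sided sign-flip tests (7 mice; smallest p 0.015625), adjusted over 10 comparisons by Benjamini-Hochberg (threshold 0.05). Folds between tables used TRAV genes with at least 20 cells. Intervals are exact (Clopper-Pearson) 95% binomial ones and cover counting error only. Named were, per copy, the 3 leading TRAJ and TRBV genes, the largest clonotypes of at least 3 cells, the 3 most widespread chains and clonotypes in both tables of a mouse. Germline sequence came from GRCm39 with GENCODE M39. Python 3.11.15, pandas 2.3.3, scipy 1.17.1 and pysam 0.24.0 were used, and the tests were checked on simulated data.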

Additional observations from a re-analysis of the deposited data

How the results depend on the processing

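Values are differences in mean TRAJ number or CDR3 length, copy named before minus copy named after, and a result is called lost or gained by its adjusted p. With multiplets kept, TRAV7D-3 minus TRAV7N-4 in TRAJ number was lost (1.80). With at least 2 TRA transcripts, where only 5 mice had 10 chains of TRAV7N-4 and the exact test cannot pass, the TRAJ differences to TRAV7N-4 were 2.05 for TRAV7-3, 1.51 for TRAV7D-3 and 4.23 for TRAV7-4, and TRAV7N-4 minus other TRAV genes was -6.37. The same setting lost the CDR3 lengths of TRAV7-3 (-1.499) and TRAV7D-3 (-1.45) minus TRAV7N-4, and of TRAV7-4 (0.417) and TRAV7N-4 (0.642) minus other TRAV genes. In paired cells only, TRAV7N-4 again had 5 mice. There the TRAJ differences were -2.89 for TRAV7-3 minus TRAV7-4, 2.15 for TRAV7-3 minus TRAV7N-4, -3.46 for TRAV7D-3 minus TRAV7-4, 1.28 for TRAV7D-3 minus TRAV7N-4 and 3.87 for TRAV7-4 minus TRAV7N-4. Against other TRAV genes they were -4.85 (TRAV7-3), -5.42 (TRAV7D-3) and -6.86 (TRAV7N-4), and the lost lengths were -1.46 for both -3 copies minus TRAV7N-4 and 0.541 for TRAV7N-4 minus other TRAV genes. Without TRA chains of more than 1 mouse, all TRAJ calls were lost, at -2.22, 3.11, -1.95, 3.12 and 5.65 for TRAV7-3 minus TRAV7-4, TRAV7-3 minus TRAV7N-4, TRAV7D-3 minus TRAV7-4, TRAV7D-3 minus TRAV7N-4 and TRAV7-4 minus TRAV7N-4, and -4.39, -4.12 and -7.43 for TRAV7-3, TRAV7D-3 and TRAV7N-4 minus other TRAV genes. TRAV7-3 minus TRAV7D-3, never called in the means, turned to -0.27 there. Thymus tables alone lost the same calls, at -3.51, 2.59, -3.48, 2.25, 5.21, -4.49, -4.47 and -7.00 in the same order, and turned TRAV7-3 minus TRAV7D-3 to -0.027. With medians, TRAV7-3 minus TRAV7D-3 passed (2.43, adjusted p = 0.0446 by the exact test), while TRAV7-3 minus TRAV7-4 (-1.93) and TRAV7D-3 minus TRAV7N-4 (1.21) were lost. Median CDR3 lengths of TRAV7-4 exceeded those of TRAV7N-4 by 0.143, against the direction of the means, and differed from other TRAV genes by 0.143 (TRAV7-4) and 0 (TRAV7N-4), both lost. With chains not ending in F or W included, the CDR3 length of TRAV7-4 minus TRAV7N-4 passed (-0.284, adjusted p = 0.0174 by the exact test). The cause of these changes was not tested.

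Leaving out each sublibrary or mouse gave 2.46 to 3.59 for TRAJ number of TRAV7-3 minus TRAV7N-4, 1.84 to 2.98 for TRAV7D-3 minus TRAV7N-4, -2.35 to -1.29 for TRAV7-4 minus other TRAV genes, and -0.22 to -0.037 for CDR3 length of TRAV7-4 minus TRAV7N-4. These 4 were the only results whose call changed in that way, in 14 combinations of a result and a left-out sublibrary or mouse. The median share moved to 2.41% for TRAV7-3 with at least 2 transcripts and to 1.35% for TRAV7-4 with each distinct chain counted once. Taken as 1 unit, the -3 copies had a median share of 2.90%, and TRAV7-4 with TRAV7N-4 1.52%. With distinct chains counted once, the thymus table was higher in 2, 1, 3 and 1 of 7 mice for TRAV7-3, TRAV7D-3, TRAV7-4 and TRAV7N-4, against 4, 3, 5 and 4 by cells. Counting every cell, ranking TRAJ genes and leaving out cells with a second TRA changed no call, nor did an alternative chosen after seeing the data, in which only cells whose read held the copy's own bases were used. Copies were compared within mice throughout. Between labelled groups of samples, no paired analysis was possible because the labels give the samples no groups and no shared replicate numbers. With 11 to 412 distinct chains of a copy per mouse, small differences were not detectable at this depth.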
